A study of Mus musculus with 5 samples.

Results

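Glutathione peroxidases and targets of the transcription factor NRF2 were followed in murine lung cancer-associated fibroblasts (CAFs), the activated stromal fibroblasts of a tumor. The genes were a named list of 10, drawn from the 21835 genes of the expression table by symbol and Ensembl identifier. The list held 5 glutathione peroxidase genes (*Gpx1*, *Gpx3*, *Gpx4*, *Gpx7* and *Gpx8*) and 5 genes regarded as NRF2 targets (*Hmox1*, *Nqo1*, *Gclm*, *Gclc* and *Txnrd1*). All 10 were found, and all 10 passed the filter on low values described below. The list was chosen by pathway, with the CPM and fold-changes of this same comparison already known, so the levels of these genes are given as a description without a test.

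Poly(A) RNA was sequenced from 2 samples of CAF-vec, labeled as a wild-type control and carrying the empty lentiviral vector, and from 3 samples of CAF-200, labeled as overexpressing miR-200. CAF-200 carried the miR-200b, miR-200a and miR-429 cluster in the same kind of vector, and all cells were cultured lines. The labels of all 5 samples describe lentiviral infection of CAFs and G418 selection. The results and the sequencing methods of the study name CAFs too, whereas its cell culture methods name a hygromycin vector brought into normal lung fibroblasts. Neither the age nor the strain of the animals of origin is given in the labels. Values were in CPM, that is, counts scaled to a common total in each sample, and fold-changes are differences of mean log2(CPM + 0.5), CAF-200 minus CAF-vec. Standard errors come from a fit over all genes, with a variance pooled over both groups and adjusted towards that of other genes. They can therefore understate the wider spread of the CAF-vec samples. The methods also describe RNA taken in triplicate from CAF-vec and from CAF-200, whereas 2 CAF-vec samples were analysed here. Nothing in the labels ties the samples to separate cultures or separate transductions. The *p* values therefore measure only the spread between these samples, and miR-200 and the particular transduced population cannot be told apart.

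Glutathione peroxidases reduce hydrogen peroxide and lipid hydroperoxides at the expense of reduced glutathione, the main thiol of the cell. NRF2, encoded by *Nfe2l2*, is held in the cytoplasm and sent for degradation by KEAP1. When KEAP1 cysteines are modified by oxidants or electrophiles, NRF2 accumulates, pairs with a small MAF protein, and binds antioxidant response elements (AREs) of genes for glutathione synthesis, thioredoxin reduction and quinone detoxification. Reactive oxygen species are known to take part in the conversion of fibroblasts into myofibroblasts under TGF-β.

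The overexpressed miRNAs are shown first because the seed decides which transcripts they can pair with. The mature sequences below are from RefSeq (GRCm38.p6), 5′ to 3′, with the seed (bases 2 to 8) in capitals.
mmu-miR-200b-3p: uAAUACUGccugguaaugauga
mmu-miR-429-3p: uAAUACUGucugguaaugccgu
mmu-miR-200a-3p: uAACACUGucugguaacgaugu
miR-200b-3p and miR-429-3p shared their seed, and miR-200a-3p had another. The complement of a whole seed was sought in the longest annotated 3′-UTR (GENCODE M21, GRCm38) of each of the 10 genes. *Gclc* was the single gene with a match, to the miR-200a-3p seed, at chr9:77793353-77793359 on the plus strand, position 102 of a 3′-UTR of 1234 bases. The site is printed with 10 bases on either side, the match in capitals.
*Gclc* site: agatgacctgCAGTGTTtctgcgccag
The other 9 genes held no match to either seed in this window. Matches to part of a seed and sites outside the 3′-UTR were not sought, so pairing with these genes is not excluded. Among all 12098 tested genes with an annotated 3′-UTR, 16.5% held a match for miR-200b-3p and miR-429-3p, 22.0% for miR-200a-3p and 31.8% for either. The median 3′-UTR length of the 10 genes, 582 bases, was below the 1351.5 bases of all those genes.

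The catalytic codon divides the peroxidases into selenoproteins, which read a UGA codon as selenocysteine, and cysteine enzymes. The coding strand around that codon is printed below from GENCODE M21, with the codon in capitals. It was annotated as selenocysteine in *Gpx1*, *Gpx3* and *Gpx4*, and was the cysteine codon at the aligned place in *Gpx7* and *Gpx8*.
*Gpx1* codon 47: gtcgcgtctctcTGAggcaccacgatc
*Gpx3* codon 73: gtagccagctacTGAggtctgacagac
*Gpx4* codon 129: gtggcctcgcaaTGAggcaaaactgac
*Gpx7* codon 56: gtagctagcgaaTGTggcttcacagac
*Gpx8* codon 79: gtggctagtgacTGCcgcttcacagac
*Txnrd1* is the remaining selenoprotein gene of the list, and its selenocysteine codon was the last but one before the stop, codon 612 of 613 in the longest annotated transcript.
*Txnrd1* codon 612: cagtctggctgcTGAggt
The difference between CAF-200 and CAF-vec did not follow this division. Of the selenoprotein genes, *Gpx3* and *Txnrd1* were higher and *Gpx1* and *Gpx4* lower, and of the cysteine peroxidases *Gpx8* was higher and *Gpx7* lower.

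Of the 10 genes, 7 had log2 fold-changes above 0 and 3 below 0. The median was 0.59, against -0.094 over all 12175 genes tested. All 5 NRF2 targets were higher in CAF-200 (median 0.62), whereas the peroxidases were divided, with 2 of 5 higher and a median of -0.19. In 7 genes every CAF-200 value lay above both CAF-vec values, which was so in 24.3% of all genes tested. In *Gpx4* and *Gpx7* every CAF-200 value lay below both, as in 37.3% of all genes tested, and in *Gpx1* the groups overlapped. Nothing is read from these counts, since the list was chosen with the comparison known.

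**Figure D1:**
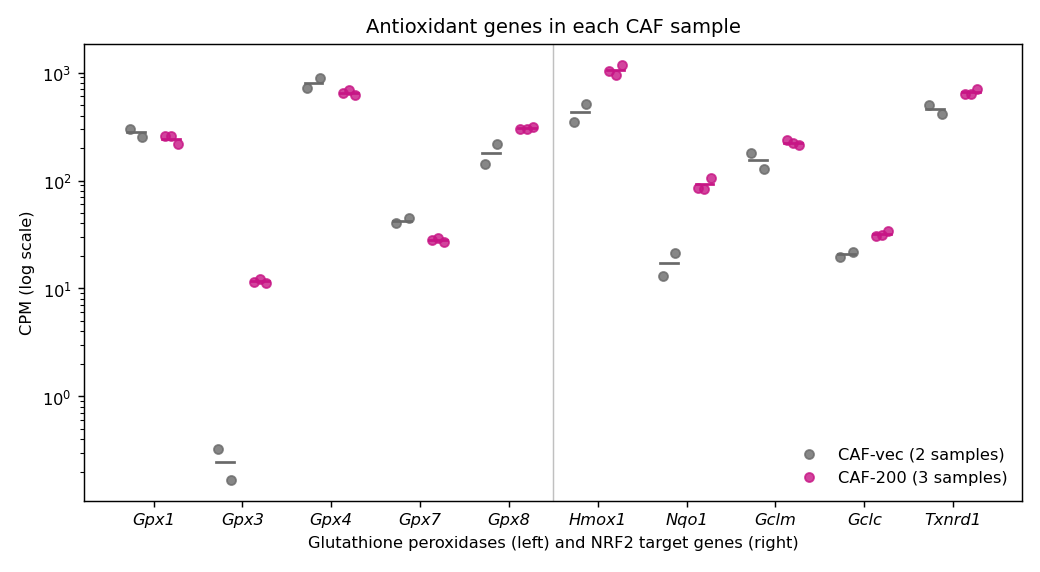
CPM of the 10 genes (log axis) in each of the 2 CAF-vec samples (grey) and 3 CAF-200 samples (magenta), with a line at each group mean. The peroxidases are left of the vertical line and the NRF2 targets right of it. *Gpx3* shows the widest separation (0.168 and 0.326 CPM against 11.3 to 12.2 CPM), and the groups overlap in *Gpx1* alone.

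Among the peroxidases, *Gpx3* showed by far the widest difference. It encodes the secreted peroxidase of plasma and extracellular fluid (ENSMUSG00000018339, chr11:54902453-54910377, plus strand, GRCm38). *Gpx3* was 0.326 and 0.168 CPM in CAF-vec 1 and 2, against 11.5, 12.2 and 11.3 CPM in CAF-200. Means were 0.247 ± 0.112 CPM (SD, n = 2) and 11.7 ± 0.455 CPM (SD, n = 3), a 47.2-fold ratio of means. The gene was thus close to undetected in CAF-vec, and it entered the fit through the CAF-200 samples alone, so it had to differ once it entered. Its log2 fold-change of 4.03 (standard error, SE, 0.137) was the 3rd highest of the 12175 genes tested. That value is set partly by the pseudocount, being 3.35 with 1 CPM and 5.12 with 0.1 CPM. The sequencing depth is unknown, so no counting interval can be given for the CAF-vec values. In bulk RNA of this kind, fewer cells expressing a gene and less RNA in each cell cannot be told apart.

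*Gpx8* was the other peroxidase gene that was higher in CAF-200. GPX8 is a membrane protein of the endoplasmic reticulum, where it removes peroxide during oxidative protein folding (ENSMUSG00000021760, chr13:113042753-113046410, minus strand). *Gpx8* was 142 and 216 CPM in CAF-vec 1 and 2, against 302, 297 and 315 CPM in CAF-200. Every CAF-200 sample was above both CAF-vec samples, and the gap between the CAF-vec samples was much wider than the whole range of CAF-200. Group means were 179 ± 51.9 CPM (SD, n = 2) and 305 ± 8.95 CPM (SD, n = 3), with a log2 fold-change of 0.80 (SE 0.183). Against CAF-vec 1 alone the log2 fold-change was 1.10, and against CAF-vec 2 alone 0.50. *Cdc20b*, which overlaps *Gpx8* on the opposite strand, was at most 0.0413 CPM in any sample.

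*Gpx7* encodes a related peroxidase of the endoplasmic reticulum lumen (ENSMUSG00000028597, chr4:108400390-108406961, minus strand), and it was lower in CAF-200. *Gpx7* was 40.4 and 44.5 CPM in CAF-vec 1 and 2, against 28.2, 29.2 and 27.2 CPM in CAF-200. Both groups were tight and apart from each other. Means of 42.5 ± 2.90 CPM (SD, n = 2) and 28.2 ± 1.01 CPM (SD, n = 3) gave a log2 fold-change of -0.58 (SE 0.0904). The peroxidases of the endoplasmic reticulum, *Gpx7* and *Gpx8*, thus differed between CAF-vec and CAF-200 in opposite directions.

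*Gpx4*, whose product reduces phospholipid hydroperoxides within membranes and protects cells from ferroptosis, had the highest level per exon length of the 5 peroxidases in both groups (ENSMUSG00000075706, chr10:80047166-80056439, plus strand). *Gpx4* was 712 and 896 CPM in CAF-vec 1 and 2, against 644, 693 and 614 CPM in CAF-200. All CAF-200 values were below both CAF-vec values, although CAF-vec 1 lay nearer to the CAF-200 samples than to CAF-vec 2. The log2 fold-change was -0.30 (SE 0.140), and it was -0.13 against CAF-vec 1 alone and -0.46 against CAF-vec 2 alone.

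*Gpx1*, encoding the main cytosolic peroxidase (ENSMUSG00000063856, chr9:108338903-108340343, plus strand), was 302 and 255 CPM in CAF-vec 1 and 2, against 257, 259 and 219 CPM in CAF-200. CAF-vec 2 lay among the CAF-200 values. The log2 fold-change of -0.19 (SE 0.129) was -0.31 against CAF-vec 1 alone and -0.064 against CAF-vec 2 alone, and -0.11 without CAF-200 3. The remaining genes of the family, *Gpx2*, *Gpx5* and *Gpx6*, were listed at 0 in all 5 samples.

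To compare the peroxidases with each other, CPM were divided by the length of each gene's annotated exons, giving CPM per kilobase. On this scale the 5 genes together came to 790 to 938 CPM per kilobase in CAF-vec and 836 to 895 in CAF-200, so the totals overlapped. Their composition differed. *Gpx8* made up 17.2% to 22.0% of the peroxidase total in the CAF-vec samples and 31.7% to 35.9% in the CAF-200 samples. *Gpx4* made up 52.3% to 55.5% in CAF-vec and 42.6% to 44.9% in CAF-200, and remained the largest contributor in all 5 samples. *Gpx8* took the second place from *Gpx1* in the CAF-200 samples, whereas in the CAF-vec samples the order of *Gpx1* and *Gpx8* was not the same in both. *Gpx1* gave 18.9% to 26.5% in CAF-vec and 18.2% to 20.5% in CAF-200, with overlapping groups. *Gpx7* was 3.68% to 3.97% in CAF-vec and 2.52% to 2.53% in CAF-200. Despite its wide fold-change, *Gpx3* contributed 0.734% to 0.752% of the peroxidase total in CAF-200, and 0.0099% to 0.0228% in CAF-vec.

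**Figure D2:**
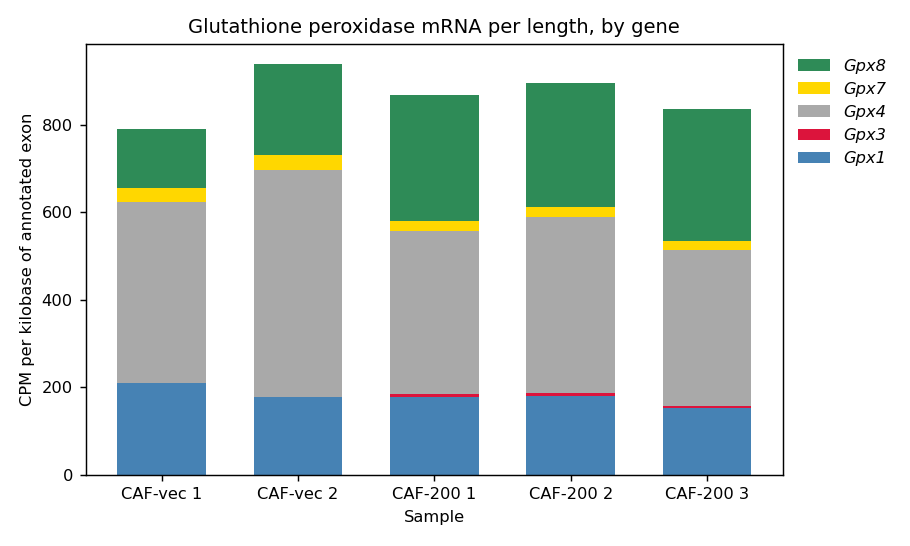
CPM per kilobase of annotated exon of the 5 detected glutathione peroxidase genes, stacked for each sample. The total is 790 to 938 in CAF-vec and 836 to 895 in CAF-200, and the *Gpx8* segment (green) is larger in each of the 3 CAF-200 samples than in both CAF-vec samples.

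Of the NRF2 targets, *Nqo1* differed most. NQO1 reduces quinones without forming semiquinone radicals, and its transcript is a common readout of NRF2 activity (ENSMUSG00000003849, chr8:107388225-107403206, minus strand). *Nqo1* was 13.0 and 21.4 CPM in CAF-vec 1 and 2, against 86.0, 83.5 and 106 CPM in CAF-200. The lowest CAF-200 value was well above the higher CAF-vec value. Means were 17.2 ± 5.94 CPM (SD, n = 2) and 91.9 ± 12.5 CPM (SD, n = 3), a 5.34-fold ratio of means and a log2 fold-change of 2.42 (SE 0.227), the 35th highest of all genes tested. It was 2.77 against CAF-vec 1 alone and 2.07 against CAF-vec 2 alone.

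*Hmox1* encodes the inducible heme oxygenase, which opens heme to biliverdin with release of carbon monoxide and iron, and which is repressed by BACH1 as well as induced by NRF2 (ENSMUSG00000005413, chr8:75093621-75100589, plus strand). *Hmox1* was 350 and 509 CPM in CAF-vec 1 and 2, against 1027, 950 and 1181 CPM in CAF-200. No CAF-200 value came near the CAF-vec values. The means of 429 ± 112 CPM (SD, n = 2) and 1053 ± 118 CPM (SD, n = 3) gave a 2.45-fold ratio and a log2 fold-change of 1.31 (SE 0.194). Against CAF-vec 1 alone the log2 fold-change was 1.58, and against CAF-vec 2 alone 1.04.

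Glutamate-cysteine ligase, which carries out the first and rate-limiting step of glutathione synthesis, is made of the catalytic subunit GCLC and the modifier subunit GCLM. Both genes were higher in CAF-200. *Gclc* (ENSMUSG00000032350, chr9:77754535-77794485, plus strand) was 19.7 and 21.9 CPM in CAF-vec 1 and 2, against 30.9, 31.5 and 34.1 CPM in CAF-200. The samples of each group lay close together, and the log2 fold-change was 0.62 (SE 0.0967). *Gclc* is also the gene whose 3′-UTR held the miR-200a-3p seed match printed above. *Gclm* (ENSMUSG00000028124, chr3:122245557-122270732, plus strand) was 181 and 129 CPM in CAF-vec 1 and 2, against 235, 223 and 214 CPM in CAF-200. Here the CAF-vec samples differed by about as much as CAF-vec 1 differed from the CAF-200 samples, and the log2 fold-change of 0.55 (SE 0.160) was 0.30 against CAF-vec 1 alone and 0.80 against CAF-vec 2 alone. A pseudogene on the same strand, *Gm6061*, overlaps *Gclm*, and reads shared between them could not be separated here.

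*Txnrd1* encodes cytosolic thioredoxin reductase, the selenoenzyme that passes electrons from NADPH to thioredoxin (ENSMUSG00000020250, chr10:82833951-82897712, plus strand). *Txnrd1* was 501 and 415 CPM in CAF-vec 1 and 2, against 637, 633 and 706 CPM in CAF-200. All CAF-200 values were above both CAF-vec values. Means were 458 ± 60.6 CPM (SD, n = 2) and 659 ± 41.6 CPM (SD, n = 3), with a log2 fold-change of 0.53 (SE 0.128). *Eid3*, which overlaps *Txnrd1* on the same strand, was 2.31 to 4.43 CPM.

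**Figure D3:**
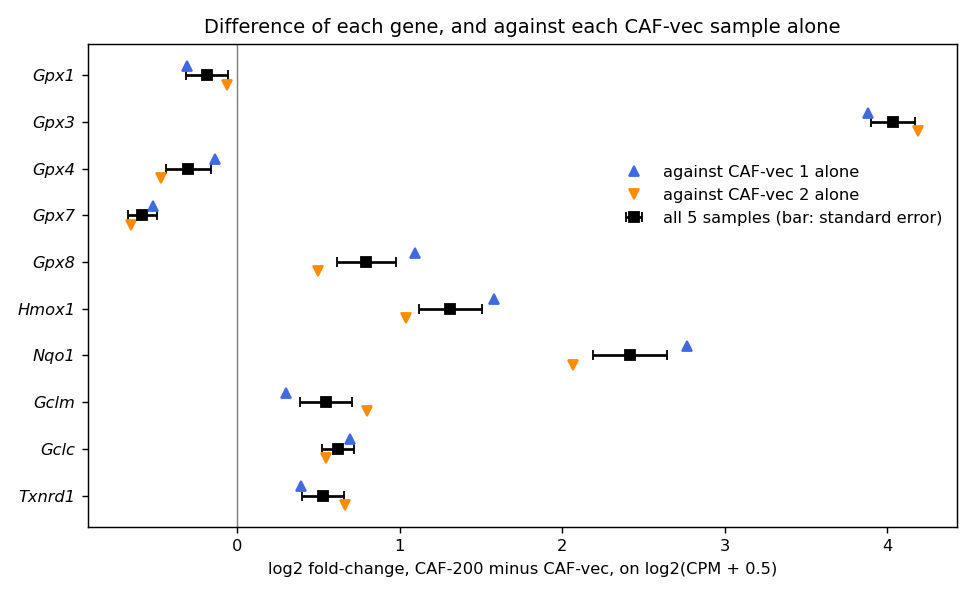
Log2 fold-change of each gene (CAF-200 minus CAF-vec on log2(CPM + 0.5)) from all 5 samples with its standard error (black squares), against CAF-vec 1 alone (blue triangles) and against CAF-vec 2 alone (orange triangles). The standard error pools the spread of both groups, so it can understate that of CAF-vec. No gene changes sign with the CAF-vec sample used, and the values nearest 0 are those of *Gpx1* (-0.064 against CAF-vec 2 alone) and *Gpx4* (-0.13 against CAF-vec 1 alone).

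In all 10 genes the CAF-vec samples differed by more on the log2 scale than the whole span of the 3 CAF-200 samples, with *Gpx1* nearly equal. Over all genes tested, log2 values of CAF-vec 1 and 2 differed with an SD of 0.490, and those of any 2 CAF-200 samples with an SD of 0.192 to 0.204. The CAF-vec samples did not order the genes alike. *Gpx4*, *Gpx7*, *Gpx8*, *Hmox1*, *Nqo1* and *Gclc* were higher in CAF-vec 2, and *Gpx1*, *Gpx3*, *Gclm* and *Txnrd1* were higher in CAF-vec 1. The widest gaps were a ratio of 1.94 for *Gpx3*, which was near 0 in both, and 1.65 for *Nqo1*.

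Per kilobase of exon, *Gpx4* had the highest level of the 10 genes in CAF-vec (467 CPM per kilobase), followed by *Hmox1* (245), *Gpx1* (193) and *Gpx8* (171). The sample ranges of *Hmox1*, *Gpx1* and *Gpx8* overlapped in CAF-vec, so their order there was not resolved. In CAF-200 the order was *Hmox1* (601), *Gpx4* (377), *Gpx8* (291) and *Gpx1* (170), with no overlap between neighbors. *Txnrd1* came next in both groups, with 64.6 in CAF-vec and 92.9 in CAF-200. At the lower end, *Gclm* exceeded its partner subunit *Gclc* in both groups. On this scale *Gclm* was 24.6 in CAF-vec and 35.6 in CAF-200, and *Gclc* was 5.52 and 8.55. *Nqo1* went from 11.1 in CAF-vec to 59.2 in CAF-200, passing *Gpx7* and *Gclm*. The exon length used is that of all annotated transcripts together, so a gene with long rare isoforms is placed too low.

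NRF2 binds AREs, so the proximal promoters were searched for the ARE core TGACNNNGC on both strands. RefSeq windows (GRCm38.p6) of 250 bases before to 50 after the transcription start were matched by symbol for 8 of the 10 genes, that is, all but *Hmox1* and *Gclc*. *Gclm* and *Txnrd1* each held 1 match, on the strand opposite to the gene, and these are printed 5′ to 3′ along that strand with 10 bases on either side and the core in capitals.
*Gclm* at chr3:122245423-122245431: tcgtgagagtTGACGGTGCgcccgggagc
*Txnrd1* at chr10:82859114-82859122: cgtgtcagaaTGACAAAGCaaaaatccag
The match lay at position -134 from the start site in *Gclm* and at position -92 in *Txnrd1*. *Gclm* had 1 window, whereas *Txnrd1* had 3, for alternative start sites, and the match was in 1 of them (chr10:82858956-82859255), which lies inside the gene's span rather than at its outermost start. Neither core held the AP-1 motif TGACTCA, which can lie within an ARE. The ARE core was not in the windows of *Gpx1*, *Gpx3*, *Gpx4*, *Gpx7*, *Gpx8* and *Nqo1*. Sequence outside these short windows was not searched, so the absence of a match does not mean that a gene lacks an ARE. A match was present in 12.4% of all 32851 RefSeq windows, and in 16.9% of the 9550 tested genes with a window.

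Whether the rest of the antioxidant system differed alike was examined in 153 other genes in lists by function, tested within the fit over all genes (limma, Benjamini-Hochberg adjustment). These lists too were compiled with earlier results of these data known. Genes were called at the study's thresholds, an adjusted *p* under 0.01 with a log2 fold-change beyond 1. Of the 153, 129 passed the filter, 4 were called higher and 2 lower. These are 3.10% and 1.55% of those tested, close to the 2.37% called higher and 2.35% called lower of all genes. At an adjusted *p* under 0.05, 15 rose and 23 fell, or 11.6% and 17.8%, against 11.9% and 18.6% of all genes. Their median log2 fold-change was -0.010, against -0.094 over all genes tested. The antioxidant genes outside the list of 10 were thus called about as often as genes in general. The counts moved with the samples used. A fit without a CAF-vec sample takes its spread from CAF-200 alone, so its counts below do not measure the spread of CAF-vec. With any 1 CAF-200 sample left out, 0 genes were called in either direction in limma at the study's thresholds, although 13 to 18 were higher and 22 to 24 lower at an unadjusted *p* under 0.05. Without CAF-vec 2, 7 were called higher and 5 lower. At an adjusted *p* under 0.05, 5, 6 and 5 rose and 8, 5 and 2 fell without CAF-200 1, 2 and 3, 37 rose and 28 fell without CAF-vec 1, and 31 rose and 53 fell without CAF-vec 2.

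**Figure D4:**
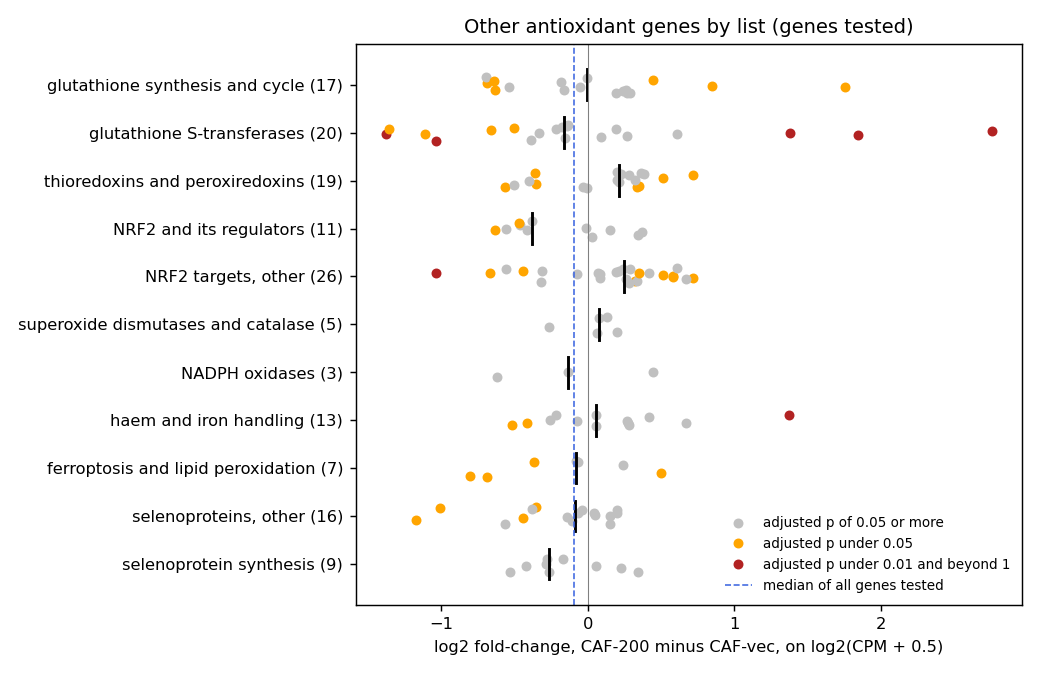
Log2 fold-change (CAF-200 minus CAF-vec on log2(CPM + 0.5)) of the antioxidant genes outside the list of 10, 1 point per tested gene, by functional list with the number tested in brackets (a gene of several lists, such as *Gstm1*, has a point in each). Black ticks are list medians, the dashed line is the median of all genes tested (-0.094), orange points have an adjusted *p* under 0.05 and red points also pass the study's thresholds. Of the 6 genes in red, 5 are glutathione S-transferases, 3 higher and 2 lower.

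The glutathione S-transferases, which conjugate glutathione to electrophiles, held 5 of the 6 called genes and were divided in direction. Of 25 genes, 20 were tested, of which 3 rose and 6 fell at an adjusted *p* under 0.05 (median -0.16). *Gstk1*, encoding the mitochondrial and peroxisomal kappa enzyme, was 0.440 and 0.770 CPM in CAF-vec, against 7.29, 7.60 and 5.88 CPM in CAF-200, giving a log2 fold-change of 2.76 (SE 0.188, limma adjusted *p* = 0.0019). *Mgst1*, encoding a membrane-bound enzyme, was 73.9 and 65.3 CPM in CAF-vec, against 195, 182 and 167 CPM in CAF-200, giving a log2 fold-change of 1.38 (SE 0.110, limma adjusted *p* = 0.00254). In both genes the groups were far apart, although *Gstk1* was near the 0.5 CPM filter in CAF-vec. The log2 fold-change of *Gstk1* was 2.30 with a pseudocount of 1 CPM and 3.35 with 0.1 CPM. *Gstm4* rose from 1.25 to 5.70 CPM on average (log2 fold-change 1.84, limma adjusted *p* = 0.00334). *Gsto2* fell by 1.37 on the log2 scale (limma adjusted *p* = 0.00367), from 74.6 to 28.1 CPM on average. *Gstm1* fell by 1.03 on the log2 scale (limma adjusted *p* = 0.00893), from 129 to 61.7 CPM. *Gstp2* (log2 fold-change -1.11) and *Mgst3* (-1.36) were lower at an adjusted *p* of 0.0106 and 0.0348 (limma). *Mgst3* was 37.9 and 88.5 CPM in CAF-vec, against 22.1, 25.3 and 19.9 CPM in CAF-200, and its log2 fold-change was -0.75 without CAF-vec 2 and -1.96 without CAF-vec 1. Values of the *Gstm* and *Gstp* genes are uncertain, since near-identical paralogs can share reads. Without CAF-200 1, 2 or 3, none of the 5 calls passed, with adjusted *p* values (limma) of 0.0192 to 0.0203 for *Gstk1*, 0.0223 to 0.0257 for *Mgst1* and 0.0449 to 0.0552 for *Gstm1*. Their log2 fold-changes stayed close to those of all samples (2.69 to 2.86 for *Gstk1*). The call of *Gstm1* was also lost without CAF-vec 2, where its log2 fold-change was -0.77, and under other processing, with quantile normalization (-0.94), centring on the sample median (-0.93), no filter or no variance trend (limma adjusted *p* of 0.0109 to 0.0196). *Mgst3* missed 0.05 with any 1 CAF-200 sample left out, without the filter (0.0598, limma) and with quantile normalization (0.0521, limma). *Gstp2* missed 0.05 without CAF-200 2.

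Glutathione synthesis and cycling beyond the ligase showed no common direction, with 3 of 17 genes higher and 3 lower at an adjusted *p* under 0.05 and a median of -0.0028. *Ggct*, whose product releases 5-oxoproline from gamma-glutamyl peptides, was 10.3 and 6.14 CPM in CAF-vec, against 30.0, 19.98 and 37.0 CPM in CAF-200 (log2 fold-change 1.75, limma adjusted *p* = 0.0131). *Glrx*, encoding glutaredoxin, rose from 63.9 to 113 CPM on average (log2 fold-change 0.85, limma adjusted *p* = 0.0172). *Chac1*, encoding an enzyme that degrades glutathione, fell by 0.69 on the log2 scale (limma adjusted *p* = 0.00738), from 15.2 to 9.24 CPM. With a CAF-200 sample left out these calls could be lost while the log2 fold-changes stayed close. *Ggct* was 1.71 without CAF-200 1 and 1.56 without CAF-200 3 (limma adjusted *p* = 0.0545 and 0.0567), *Glrx* was 0.84 to 0.86 without any 1 of the 3 (0.0663 to 0.0802, limma), and *Chac1* was -0.66 without CAF-200 3 (0.0508, limma).

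In the thioredoxin and peroxiredoxin list, 4 of 19 genes rose and 3 fell at an adjusted *p* under 0.05 (median 0.22). *Srxn1*, encoding sulfiredoxin, which restores overoxidized peroxiredoxins and is itself an NRF2 target, was 40.6 and 41.9 CPM in CAF-vec, against 68.7, 65.9 and 70.0 CPM in CAF-200 (log2 fold-change 0.72, SE 0.0810, limma adjusted *p* = 0.00436). The samples were close within each group, and this call held with each CAF-200 sample left out. *Sesn1*, encoding sestrin 1, fell by 0.57 on the log2 scale (limma adjusted *p* = 0.0102), a call lost with any 1 CAF-200 sample left out (0.0574 to 0.0637, limma). Of the superoxide dismutases and catalase, which make or remove hydrogen peroxide, 0 of 5 genes passed this threshold in limma, and 0 had an unadjusted *p* under 0.05 (median 0.077). Of 11 NADPH oxidase genes 3 were tested, and 0 passed in limma, with 1 higher and 1 lower at an unadjusted *p* under 0.05 (median -0.13).

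Of 27 other genes regarded as NRF2 targets, 26 were tested, and 6 rose and 3 fell at an adjusted *p* under 0.05 (median 0.25). *Srxn1* had the largest rise of these. *Gstm1* had the largest fall, followed by *Tkt*, encoding transketolase of the pentose phosphate pathway, which fell by 0.67 on the log2 scale (limma adjusted *p* = 0.0108), from 231 to 145 CPM on average. The call of *Tkt* was lost without CAF-200 2 or 3 (0.0633 and 0.0674, limma).

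For NRF2 and its regulators, 0 of 11 tested genes rose and 2 fell in limma at an adjusted *p* under 0.05 (median -0.38), with 1 higher and 4 lower at an unadjusted *p* under 0.05. *Nfe2l2* was 66.1 and 85.4 CPM in CAF-vec, against 96.2, 92.4 and 97.2 CPM in CAF-200. All CAF-200 values were above both CAF-vec values, yet the log2 fold-change of 0.34 (SE 0.127) had an adjusted *p* of 0.0923 (limma). The value depended on the CAF-vec sample, being 0.16 without CAF-vec 1 and 0.52 without CAF-vec 2. With any 1 CAF-200 sample left out the adjusted *p* was 0.204 to 0.247 (limma). *Keap1* was 44.3 and 36.6 CPM in CAF-vec, against 28.3, 30.3 and 28.5 CPM in CAF-200, giving a log2 fold-change of -0.47 (SE 0.110, limma adjusted *p* = 0.0274). *Mafk*, encoding a small MAF partner of NRF2, fell by 0.63 on the log2 scale (limma adjusted *p* = 0.0203). Both falls missed the threshold with any 1 CAF-200 sample left out, with adjusted *p* values (limma) of 0.0911 to 0.117 for *Keap1* and 0.0783 to 0.0949 for *Mafk*.

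Genes of heme and iron handling, the substrate and a product of heme oxygenase, held 1 called gene among 13 (median 0.059). *Tfrc*, encoding the transferrin receptor for iron uptake, was 14.5 and 16.3 CPM in CAF-vec, against 39.5, 38.0 and 44.7 CPM in CAF-200, giving a log2 fold-change of 1.37 (SE 0.111, limma adjusted *p* = 0.00255). *Slc40a1*, encoding the iron exporter ferroportin, fell by 0.51 on the log2 scale (limma adjusted *p* = 0.0384), and *Ncoa4*, encoding the receptor for ferritin turnover, fell by 0.42 (limma adjusted *p* = 0.0425). With any 1 CAF-200 sample left out *Tfrc* missed the study's threshold (0.0223 to 0.0258, limma) and the falls missed 0.05 (0.103 to 0.14 for *Slc40a1* and 0.122 to 0.151 for *Ncoa4*, limma). The log2 fold-change of *Slc40a1* was -0.34 without CAF-vec 1, and that of *Ncoa4* was -0.27 without CAF-vec 2. Both falls also missed 0.05 without the filter (0.0662 and 0.0563, limma), with quantile normalization (0.0565 and 0.133, limma) and with centring (0.0503 and 0.118, limma), and *Ncoa4* also without the variance trend (0.0518, limma). Of the genes of ferroptosis, 7 of 10 were tested, and 1 rose and 3 fell at an adjusted *p* under 0.05 (median -0.076). They included *Gch1*, for tetrahydrobiopterin synthesis, which fell from 1.11 to 0.422 CPM (log2 fold-change -0.80, limma adjusted *p* = 0.0191). At this low level the log2 fold-change was -0.57 with a pseudocount of 1 CPM and -1.21 with 0.1 CPM. *Gch1* passed the filter through CAF-vec alone, so it had to differ, and its call was lost with any 1 CAF-200 sample left out (0.0632 to 0.0773, limma).

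Of the other selenoprotein genes, 16 of 19 were tested, and 0 rose and 4 fell in limma at an adjusted *p* under 0.05 (median -0.087), with 0 higher and 5 lower at an unadjusted *p* under 0.05. *Selenoo*, encoding a mitochondrial protein, was 39.5 and 26.6 CPM in CAF-vec, against 15.6, 14.9 and 12.2 CPM in CAF-200 (log2 fold-change -1.17, limma adjusted *p* = 0.011). *Selenok*, encoding a protein of the endoplasmic reticulum membrane, was 176 and 112 CPM in CAF-vec, against 76.3, 70.1 and 63.0 CPM in CAF-200 (log2 fold-change -1.01, limma adjusted *p* = 0.0185). In both, CAF-vec 1 was well above CAF-vec 2. The call of *Selenoo* was lost without CAF-200 2 or 3 (0.051 and 0.0558, limma) and that of *Selenok* with any 1 CAF-200 sample left out (0.0579 to 0.0843, limma). Of the 9 genes for selenoprotein synthesis 0 passed this threshold in limma, with 0 higher and 3 lower at an unadjusted *p* under 0.05 (median -0.26).

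The labels were checked against the miR-200 target *Zeb1* and against marker genes. The mature miRNAs themselves are not measured in poly(A) libraries. *Zeb1* was 43.5 and 50.7 CPM in CAF-vec, against 37.8, 37.5 and 34.1 CPM in CAF-200, giving a log2 fold-change of -0.36 with an adjusted *p* of 0.0504 (limma). It passed 0.05 with a CAF-vec sample left out (limma adjusted *p* = 0.00301 and 0.0308), where that group has no spread of its own. It did not pass with a CAF-200 sample left out (0.134 to 0.183, limma), with quantile normalization (0.152, limma) or with centring (0.137, limma). *Zeb2* overlapped between the groups (log2 fold-change -0.23, limma adjusted *p* = 0.374) and was 0.083 without CAF-vec 1 and -0.54 without CAF-vec 2. With all 5 samples neither *Zeb1* nor *Zeb2* passed 0.05, so they did not settle the miR-200 label. Of 11 fibroblast markers 10 were tested, and the list summed to 13384 to 17245 CPM in CAF-vec, against 10761 to 11750 CPM in CAF-200, with *Fap* under 0.5 CPM in every sample. The list was divided, with 5 log2 fold-changes above and 5 below 0 and a median of -0.068. *Thy1*, *Dcn* and *Lum* were called higher, and the other 7 tested did not pass 0.05, from *Col1a1* (-0.91) to *Col3a1* (1.02). *Col1a1* was 4613 and 2003 CPM in CAF-vec, against 1719, 1599 and 1543 CPM in CAF-200, so its value rested mostly on CAF-vec 1. All 9 epithelial markers were under 0.5 CPM in every sample, with *Krt18*, *Sftpc* and *Nkx2-1* at 0, and 7 endothelial markers summed to at most 1.06 CPM. The 9 macrophage and leukocyte markers summed to 11.6 to 14.0 CPM in CAF-vec, against 8.15 to 10.2 CPM in CAF-200, with *Adgre1* and *Cd3e* at 0. Of the 7 smooth muscle and pericyte markers 5 were tested, and *Acta2* (log2 fold-change 2.63) and *Cnn1* (2.79) were called higher. *Cspg4* (-0.41), *Notch3* (-0.31) and *Des* (0.021) were not called, the list median was 0.021, and *Myh11* and *Rgs5* were under 0.5 CPM in every sample. The list summed to 108 to 139 CPM in CAF-vec, against 690 to 742 CPM in CAF-200, and *Acta2* alone made up 661, 653 and 706 CPM of the CAF-200 sums. The study reported less α-SMA, the protein encoded by *Acta2*, on staining of CAF-200, whereas *Acta2* mRNA was higher in CAF-200 here. Why protein staining and mRNA differed in direction was not tested. The part of the shift in *Acta2* and *Cnn1* in the values of the 10 genes was not tested either.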

How the data were processed

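Stranded mRNA libraries of murine lung CAFs (CAF-vec, 2 samples, and CAF-200, 3 samples) were sequenced as read pairs. Per the labels, the authors' processing named FastQC, cutadapt, Trimmomatic, STAR, RSEM and edgeR with the mouse builds GRCm38 and mm10, and versions are not given in the sources used here. The authors deposited 1 table of normalized CPM values, with column sums of 999956 to 1000111. Whole reads could not be recovered from it, so depth is unknown and no count test was run. All sample columns were used.

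Values were compared as log2(CPM + 0.5) with limma 3.58.1 (R 4.3.3, variance trend) and Benjamini-Hochberg adjustment, keeping the 12175 of 21835 genes that reached 0.5 CPM in 2 or more samples. In simulated data with 200 changed genes, the study's thresholds recovered 0%, 52.4% and 79.7% of genes changed by 0.6, 1.5 and 2.5 on the log2 scale, with at most 2 false calls in any of 20 runs, the first of these being under the log2 threshold itself. An adjusted *p* under 0.05 alone recovered 28.1%, 76.3% and 92.2%, with at most 14 false calls. The simulation gave both groups the same spread in each gene. In the data, log2 values of the CAF-vec samples differed with an SD of 0.490, and those of any 2 CAF-200 samples with 0.192 to 0.204. Many more than 200 genes also passed 0.05 in the data. Recovery and false calls may therefore differ from these rates.

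Names, coordinates and 3′-UTRs came from GENCODE M21 by Ensembl identifier (21795 genes named), and miRNAs and promoters from RefSeq. The 10 genes and all lists were chosen with earlier results of these data known. Besides them, the text names the pathway genes past the study's thresholds, up to 2 further genes per list with the largest change at an adjusted *p* under 0.05, *Nfe2l2*, *Keap1*, *Zeb1* and *Zeb2*, and genes that overlap a listed gene. Alternatives were a pseudocount of 1 or 0.1 CPM, centring on the sample median, quantile normalization, no filter or a minimum of 1 CPM in every sample, no variance trend, the replicate number as a block, and each sample left out. Tables and plots were made with Python 3.11.15, pandas 2.3.3, numpy 2.4.6 and matplotlib 3.10.9.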

Additional observations from a re-analysis of the deposited data

How the results depend on the processing

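None of the 10 genes changed direction under any alternative that gave a value, and *Gpx3* was not tested with at least 1 CPM in every sample. Their median log2 fold-change of 0.59 became 0.68 when each sample was centred on its median and 0.67 under quantile normalization, and 0.54 to 0.60 with a sample left out. These rescalings moved the median of all genes from -0.094 to 0.0027 and -0.016. Of the antioxidant genes outside the list, the 4 called higher became 2 with at least 1 CPM in every sample, which removed *Gstk1* and *Gstm4* untested, and 0 to 7 with a sample left out. The 2 called lower became 1 without the filter, 1 after centring and 1 without the variance trend, and 0 to 5 with a sample left out. At an adjusted *p* under 0.05 the 15 higher genes became 5 to 37 and the 23 lower genes 2 to 53 with a sample left out. Leaving out a CAF-vec sample leaves 1, assumed to vary like CAF-200. *Zeb2* reversed to 0.083 without CAF-vec replicate 1 and was -0.54 without CAF-vec replicate 2. The labels do not say that a replicate number marks a shared batch, and deviations from the group mean correlated at 0.249 for number 1 and 0.134 for number 2, with 2 pairs only. With the replicate number as a block, which leaves CAF-200 3 out of the fold-change, 0 genes were called lower (limma, 23 at an unadjusted *p* under 0.05), and 7 were higher and 6 lower at an adjusted *p* under 0.05, and *Zeb1* had an adjusted *p* of 0.222 (limma). No count test was run as an alternative because whole reads could not be recovered. Depth is unknown, so counting error at low values such as *Gpx3* in CAF-vec cannot be given.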
